A study of Mus musculus with 8 samples.

Results

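Foxp3-negative conventional CD4 T cells were gated from single-cell RNA-seq of CD45+ cells of mouse B16-OVA tumors. Members were chosen by measured UMIs (a UMI, unique molecular identifier, is 1 captured RNA molecule). A cell was a member if it passed the cell filter, held at least 1 UMI of Cd4 and at least 1 of Cd3d, Cd3e and Cd3g together, held 0 UMIs of Cd8a, Cd8b1, Foxp3, Il1rl1, Il13, Ncr1 and Cd79a, and held fewer than 5 of Lyz2. This gave 596 members among 12828 filtered cells, or 4.65% (exact 95% binomial interval 4.29% to 5.02%), from 15700 deposited barcodes. In GRCm38, Cd4 lies at chr6:124864693-124888247, Cd3e at chr9:44998735-45009663 and the further marker Cd40lg at chrX:57212143-57224042. The gate read 12 genes, so the levels of these genes describe how the members were chosen and are no finding.

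The study transferred OT1 T cells, CD8 T cells with a transgenic receptor for ovalbumin, into young adult female C57BL/6 mice that carried B16-OVA, a melanoma line made to express ovalbumin. The 8 libraries came from non-treated tumors (day 5, 12 members), adoptive cell transfer (ACT) of untransduced OT1 cells (day 5, 95 members; day 12, 17 members), ACT of OT1 cells secreting PD1d and IL-2v (day 12, 39 members), ACT of OT1 cells secreting PD1d and IL-33 (day 12, 43 members) and ACT of both engineered OT1 populations together, PD1d/IL-2v/IL-33, called triple ACT below (day 5, 55 members; day 12, 53 members; day 26, 282 members). PD1d is a secreted PD-1 ectodomain used as a decoy for PD-1 ligands, IL-2v is an interleukin-2 variant that does not engage the receptor chain CD25, and IL-33 is the cytokine that binds ST2, the product of Il1rl1. Each condition and day is 1 library of sorted CD45+ cells, enriched for CD8+ cells. The study's methods state that tumors of several mice were pooled for days 5 and 12 after transfer, and do not state it for the non-treated and day 26 libraries. Differences between libraries have no replicate and were not tested. The transferred cells are CD8 cells, and the gate keeps cells with a Cd8a or Cd8b1 UMI out of the members.

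Conventional CD4 T cells recognize peptides on MHC class II molecules and help other cells through cytokines and surface ligands. The best known of these ligands is CD40 ligand (Cd40lg), which licenses dendritic cells and B cells. Regulatory T cells, the other CD4 lineage, are set by the transcription factor Foxp3 and restrain immune responses in tumors. Activated conventional cells can take T helper 1 (Tbx21, Ifng, Cxcr3), T helper 2 (Gata3, Il4, Il5), T helper 17 (Il17a) or follicular helper (Bcl6, Cxcr5) programs.

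The members held 2623180 UMIs in all, between 47645 in non-treated tumors and 1169047 at day 26 of triple ACT. Their median was 3852.5 UMIs per cell, lower than the 5625 of the 317 Foxp3-positive CD4 T cells gated the same way and the 5985 of the 4835 CD8 T cells. Per library, the median lay between 3648 and 4669 UMIs, the mean mitochondrial share between 2.18% and 3.68% and the mean ribosomal protein share between 21.1% and 27.4%. A cell with few UMIs meets a condition of 0 UMIs more easily than a deep one. When the gate was applied to counts thinned to 2000 UMIs per cell, members were 3.77% of filtered cells. Of the members, 261 held exactly 1 Cd4 UMI and 335 held 2 or more, and 842 further cells met every condition except that on Cd4. In the other direction, 317 cells failed only the condition on Foxp3, and 42 of them held exactly 1 Foxp3 UMI. The library pairs shared at most 17 cell barcodes, and at most 0.75% of the smaller library, and 2 barcodes were shared among members.

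The label of the cells was checked against Cd40lg, the marker that the gate did not use, and against markers of other cells. Cd40lg was detected in 36.2% of the members thinned to 2000 UMIs, in 1.58% of Foxp3-positive cells and in 1.08% of CD8 cells. Among 1158 cells that held at least 5 Lyz2 UMIs and no CD3 UMI, which should lack Cd40lg, it was seen in 0 cells after thinning, which allows a share of up to 0.259%. Without thinning the share was 54.4% of the members, with a median depth of 3852.5 UMIs, and 0.0864% of the Lyz2-high cells, with a median depth of 9340 UMIs. Zbtb16 of NKT cells, Ms4a1 of B cells, Csf1r of macrophages, Siglech of plasmacytoid dendritic cells, and Cpa3 and Fcer1a of mast cells were at 0 in the members of every library. Other genes of these lists were present. The NK list summed to between 62.1 and 460 CPM, the latter at day 5 of untransduced ACT, with Klrk1 or Klrd1 the most abundant, the NKT list to between 267 and 635 CPM, nearly all of it Il2rb, and the plasmacytoid dendritic cell list to between 128 and 297 CPM, with Bst2 or Irf8 the most abundant. These genes are also expressed by T cells. Melanocyte genes summed to at most 14.3 CPM (UMIs scaled to the same library total) and B cell genes to at most 10.8 CPM. The list of 14 myeloid genes summed to 1328 CPM in the day 26 library and to between 147 and 587 CPM in the others, and its most abundant gene in each library was Cst3, which encodes cystatin C.

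The gate left 140 members (23.5%) with a UMI of Il2ra or Ikzf2, genes that Foxp3-positive cells expressed at high levels. After thinning this share was 14.8%. Before thinning it was highest in the PD1d/IL-2v library, at 48.7% of 39 members, against 45 of 282 members at day 26. Non-treated tumors had 41.7% of 12 members and untransduced ACT at day 5 had 35.8% of 95. After thinning PD1d/IL-2v ACT had 43.6% and non-treated tumors 41.7%. Under a gate without these 140 cells, 21 of the named ratios between libraries left their counting interval, 2 more reversed sign and 37 stayed within it.

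Members made up between 2.00% and 8.42% of the filtered cells of a library. The share was 4.35% in non-treated tumors, 4.86% and 8.42% at days 5 and 12 of untransduced ACT, 2.00% in PD1d/IL-2v ACT, 5.61% in PD1d/IL-33 ACT, and 2.30%, 3.23% and 7.72% at days 5, 12 and 26 of triple ACT. The intervals of PD1d/IL-2v ACT (1.43% to 2.73%) and of PD1d/IL-33 ACT (4.09% to 7.49%) did not overlap. Both libraries carry the same run identifier, and the cause of the difference was not tested. This identifier is a code that the deposited aggregation gives for each library. That it marks a sequencing run is an assumption. All these intervals, like those given below, cover counting error only. The sort enriched CD8 cells, so the shares also depend on how many CD8 cells each tumor held and how the sort was set. They depend on the gate's conditions on Il1rl1 and Il13 too. Without these conditions, days 5, 12 and 26 of triple ACT had 6.07%, 5.84% and 8.37%, and day 5 of untransduced ACT 5.17%. At day 5 the share of triple ACT was then above that of untransduced ACT, not below it. The share was then 8.49% with PD1d and IL-33 and 2.36% with PD1d and IL-2v. It stayed at 4.35% in non-treated tumors and at 8.42% at day 12 of untransduced ACT.

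The balance between the CD4 lineages was read without the CD8 cells. Foxp3-positive cells were 34.7% of all gated CD4 T cells (317 of 913). They were 73.1% in PD1d/IL-2v ACT at day 12 (106 of 145, interval 65.1% to 80.1%), against 18.9% in PD1d/IL-33 ACT (10 of 53, interval 9.44% to 32.0%) and 25.4% in triple ACT (18 of 71, interval 15.8% to 37.1%) on that day. Untransduced ACT had 39.1% at day 5 and 43.3% at day 12, and triple ACT had 28.6% at day 5 and 21.7% at day 26. The interval of PD1d/IL-2v ACT lay above that of every library except non-treated tumors, where 9 of 21 cells were Foxp3-positive (42.9%, interval 21.8% to 66.0%). With the gate on thinned counts the share was 55.1% in PD1d/IL-2v ACT and between 10.8% and 26.7% in the other libraries.

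**Figure D1:**
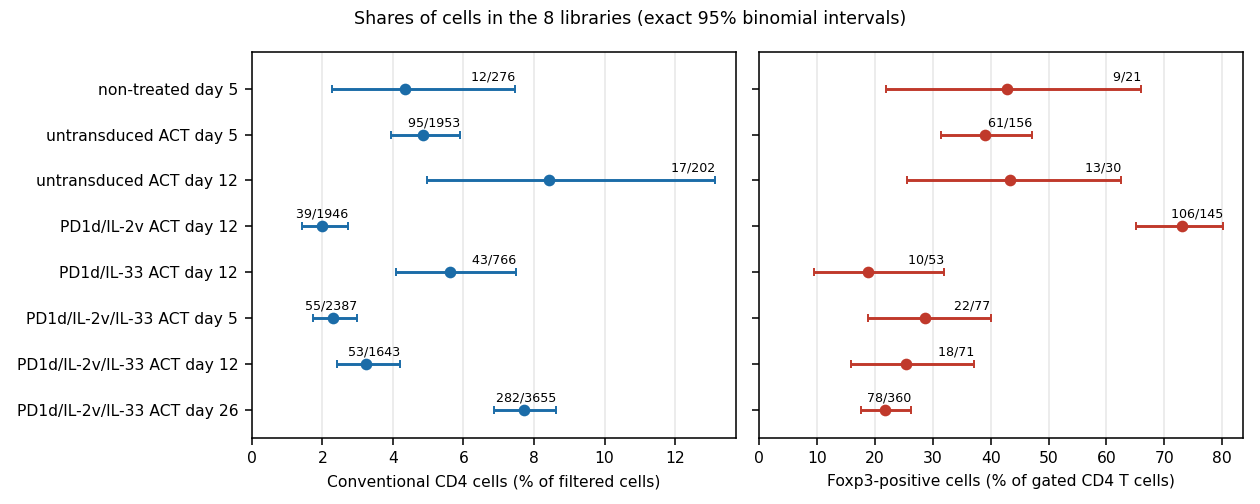
Share of conventional CD4 cells among filtered cells (left, in %) and of Foxp3-positive cells among gated CD4 T cells (right, in %) in the 8 libraries, with exact 95% binomial intervals and the cells counted. PD1d/IL-2v ACT had the lowest share on the left, 2.00%, and the highest on the right, 73.1%.

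The members were compared with Foxp3-positive CD4 cells of the same libraries to see which genes separate the CD4 lineages in these tumors. Most measured genes of recirculation and T helper 1 function were higher in the members, while most genes of the regulatory program and most inhibitory receptors were lower. UMIs were summed per library and cell type and tested with edgeR's quasi-likelihood test, with the library as a block, over the 7 libraries with at least 10 cells of both types. Of 3162 genes tested, 366 were higher in the members at an adjusted p under 0.05 (11.6%) and 298 were lower (9.42%), and the median log2 fold change over all genes was 0.02. Since every library holds both types, condition and run are the same on the 2 sides. The members were shallower than the Foxp3-positive cells, and with both thinned to 2000 UMIs per cell the counts of genes were 176 higher and 162 lower. Without the day 26 library of triple ACT, which holds 282 of the members, 233 genes were higher.

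Of 4 tested helper cytokine and ligand genes 2 were higher in the members and 0 lower. The level of Tnfsf8, which encodes the CD30 ligand, had a lowest, median and highest value of 42.0, 124 and 220 CPM over the 8 libraries, and at most 4.48 CPM in Foxp3-positive cells. Its log2 fold change was 6.06 ± 0.36 (SE), higher in 7 of 7 libraries (edgeR, adjusted p = 1.77e-09). Cd40lg was at 231 CPM in non-treated tumors, 299 and 271 at days 5 and 12 of untransduced ACT, 143 in PD1d/IL-2v ACT, 273 in PD1d/IL-33 ACT, and 171, 191 and 315 at days 5, 12 and 26 of triple ACT. No library of Foxp3-positive cells exceeded 9.15 CPM of Cd40lg, so the levels of the 2 types did not overlap. The log2 fold change was 5.25 ± 0.26 (7 of 7 libraries; edgeR, adjusted p = 1.39e-10). Foxp3-positive cells had 0 UMIs of these ligands in most libraries, so the fitted fold changes depend on the small count that edgeR adds. Ltb, a ligand of lymphoid tissue organization (log2 fold change -0.02 ± 0.16), and Ccl4 did not pass the test.

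Genes of memory and recirculation were a further group. Of 8 tested genes of this list, 5 were higher in the members and 0 were lower, with a median log2 fold change of 0.996. Tcf7, the transcription factor TCF1 of long-lived T cells, differed most (4.75 ± 0.35), with a median of 159 CPM in the members and 6.11 CPM in Foxp3-positive cells. Klf2, a factor that sustains recirculation, was higher by 2.55 ± 0.25, its target S1pr1, the receptor for exit from tissue, by 2.28 ± 0.28, Lef1 by 1.21 ± 0.26 and Foxp1 by 0.78 ± 0.23. Il7r (-0.31 ± 0.18), Ccr7 (0.27 ± 0.46) and Satb1 (0.07 ± 0.22) did not pass the test. Bcl2, which protects from cell death, was higher by 3.68 ± 0.30, and Klf3, a transcription factor of the family of Klf2, by 4.03 ± 0.31.

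The T helper 1 list moved mainly upwards, with 8 of 11 tested genes higher, 1 lower and a median of 1.03. Ifng, the defining cytokine, was higher by 3.02 ± 0.27. The chemokine receptor Cxcr6 was higher by 2.21 ± 0.25, Stat4, which relays interleukin-12, by 1.74 ± 0.23, Il18r1 by 1.42 ± 0.23, Il12rb2 by 1.03 ± 0.27, Runx3 by 0.89 ± 0.17 and Tbx21, the lineage factor T-bet, by 0.81 ± 0.28, although in only 4 of 7 libraries. Il12rb1 was lower (-1.38 ± 0.24), and Cxcr3 (0.39 ± 0.16) and Nkg7 (0.13 ± 0.16) did not pass. The gate removes cells with Il1rl1 or Il13, so low T helper 2 genes in the members follow from it in part. Among 9 T helper 2 genes only Gata3 (0.22 ± 0.18, not called) and Ccr8 (-1.54 ± 0.27, lower) could be tested, and Il9 and Il17f were at 0 in the members. Ly6c2, a surface protein of memory and effector T cells, was at 85.4 to 419 CPM in the members and at most 6.33 CPM in Foxp3-positive cells (5.76 ± 0.28), and the membrane protein gene Ms4a4b had a median of 952 CPM against 92.1 CPM (3.66 ± 0.15). Integrins Itgb1 (3.20 ± 0.19) and Itga4 (2.70 ± 0.17), which together form the adhesion receptor VLA-4, were also higher.

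**Figure D2:**
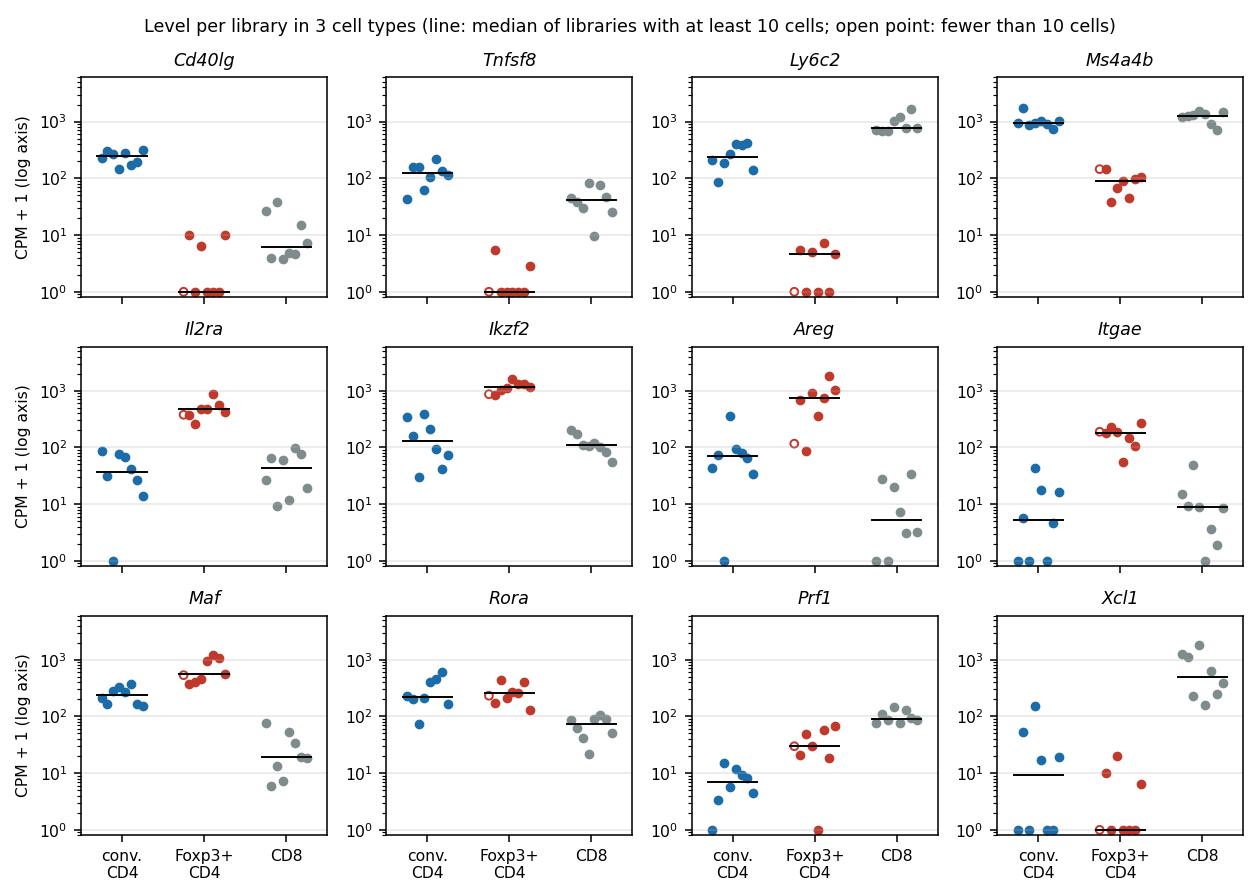
Level of 12 genes in CPM + 1 (log axis), where each point is 1 library and columns are conventional CD4, Foxp3-positive CD4 and CD8 cells; the line is the median over libraries with at least 10 cells, and the open point has fewer. By their medians Cd40lg and Tnfsf8 were highest in conventional CD4 cells, although Tnfsf8 was higher in CD8 cells in 2 libraries, Il2ra, Ikzf2, Areg and Itgae in Foxp3-positive cells, and Prf1 and Xcl1 in CD8 cells.

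Most genes of the regulatory program were lower in the members. Of 12 tested genes of this list, 10 were lower and 1 was higher, with a median of -2.65. Il2ra, the CD25 chain of the interleukin-2 receptor, was at 0 to 84.0 CPM in the members and 257 to 867 CPM in Foxp3-positive cells (-3.86 ± 0.26). Itgae, the CD103 integrin chain, differed by -3.82 ± 0.34, Ikzf2, the factor Helios, by -3.19 ± 0.29, Lrrc32, which presents latent TGF-beta, by -3.19 ± 0.41, the costimulatory receptor Tnfrsf9 by -2.78 ± 0.23 and Ctla4 by -2.53 ± 0.31. Nrp1, the semaphorin receptor neuropilin-1, went the other way (1.55 ± 0.24), and Il10 did not pass (-1.27 ± 0.49). Areg, a growth factor of tissue repair, was lower by -3.27 ± 0.36, but its call was lost when cells with Il1rl1 or Il13 were kept (-1.33) and when the gate was applied to thinned counts (-1.84). Of 6 tested inhibitory genes 5 were lower, namely Havcr2 (-2.25 ± 0.32), Lag3 (-1.78 ± 0.34), Tigit (-1.73 ± 0.24), Entpd1 (-1.65 ± 0.22) and Nt5e (-1.17 ± 0.23). Pdcd1 (PD-1) was not called (0.82 ± 0.30). Gzmb was lower (-2.17 ± 0.37), while Fasl, the death ligand, was higher (3.32 ± 0.35). Follicular helper genes were split, with Sh2d1a and Slamf6 higher, Icos, Maf and Izumo1r lower and Tox not called.

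Stress genes and some genes of recent stimulation were higher in the members than in Foxp3-positive cells. Of 8 heat-shock and immediate-early genes 6 were higher, led by Hspa1a (2.42 ± 0.33) and Hspa1b (2.39 ± 0.33), which encode HSP70 chaperones. Of 9 activation genes 4 were higher, namely Egr1 (1.70 ± 0.27), Bhlhe40 (1.61 ± 0.22), Cd69 (1.36 ± 0.15) and Nfatc1 (0.80 ± 0.17), and 0 were lower. Interferon-response genes were divided, with 3 of 9 higher and 4 lower. Proliferation genes were lower where called, 3 of 8, including Mki67 (-1.16 ± 0.32).

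The members were compared with CD8 cells, to which the transferred OT1 cells belong, to see which genes separate them in the same tumors. Most interferon-response genes were higher in the members, and most cytotoxic and proliferation genes were lower. Over all 8 libraries and 4762 genes, 616 genes were higher in the members (12.9%) and 638 were lower (13.4%). The CD8 cells were deeper, and with all cells thinned to 2000 UMIs the counts were 301 and 313. Without the library as a block they were 289 and 319. Cd40lg had the highest log2 fold change of the named genes (4.98 ± 0.30, 8 of 8 libraries; edgeR, adjusted p = 4.78e-10), although CD8 cells reached 36.6 CPM in 1 library. Ramp3, a partner of the receptors for calcitonin-family peptides, was higher by 4.01 ± 0.23, Maf, a factor of interleukin-10 and follicular helper programs, by 3.35 ± 0.29, Izumo1r, the folate receptor 4 of CD4 T cells, by 2.91 ± 0.29, Tnfrsf4, the costimulatory receptor OX40, by 2.51 ± 0.20 and Tnfsf11, the ligand RANKL, by 2.26 ± 0.25. Ramp3 was also higher than in Foxp3-positive cells (3.81 ± 0.28), whereas the median levels of Maf (242 against 551 CPM), Izumo1r (62.7 against 374 CPM) and Tnfrsf4 (390 against 1668 CPM) were below those of Foxp3-positive cells. Of 9 tested genes of the regulatory list 6 were higher in the members than in CD8 cells and 1 was lower.

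Cytotoxic genes were lower in the members for 6 of 7 tested, with a median of -2.17. Crtam, a receptor of cytotoxic lymphocytes, differed by -5.18 ± 0.30, Prf1 (perforin) by -4.42 ± 0.24, Gzma by -3.06 ± 0.40, Gzmb by -2.17 ± 0.21, Gzmk by -1.12 ± 0.28 and Ctsw by -0.86 ± 0.11, while Fasl was not called (-0.27 ± 0.19). The chemokines Xcl1 (-4.64 ± 0.25), Ccl4 (-3.33 ± 0.46) and Ccl3 (-2.55 ± 0.42) were lower in 8 of 8 libraries. Of 9 tested genes of the helper list 5 were higher and 4 lower. The higher ones were Cd40lg, Tnfsf11, Tnfsf8 (1.55 ± 0.25), Lta (0.96 ± 0.26) and Ltb (0.54 ± 0.09), and the lower ones were Xcl1, Ccl4, Ccl3 and a further chemokine gene, Ccl1. Interferon-response genes were higher in 9 of 10 tested (median 0.78), for example Ly6a (1.36 ± 0.11) and Ifi27l2a (1.08 ± 0.17). T helper 1 genes did not separate the types as a group, with 3 of 12 higher and 3 lower, and Ifng was not called (-0.18 ± 0.28). Of 10 proliferation genes 6 were lower and 0 higher. Of 8 heat-shock and immediate-early genes 6 were higher and 0 lower (median 0.99), among them Dusp1 (1.30 ± 0.14), Hspa1b (1.18 ± 0.19) and Hspa1a (1.11 ± 0.19). Of 9 memory and recirculation genes 4 were higher than in CD8 cells and 2 lower (median 0.13). The homing gene Ccr7 was lower (-1.33 ± 0.32), whereas Il7r (0.99 ± 0.14), S1pr1 (0.95 ± 0.18), Klf2 (0.80 ± 0.17) and Tcf7 (0.43 ± 0.13) were higher. Of 8 genes of interleukin-2 and STAT5 signalling 5 were higher, among them the feedback inhibitors Socs2 (1.61 ± 0.32) and Cish (0.88 ± 0.13), and Bcl2 was lower (-1.06 ± 0.18).

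The levels of single genes were then read in the members across the 8 libraries. Cd40lg spanned 143 to 315 CPM and Icos, the costimulator of activated helper cells, 385 to 965 CPM. Ccl5, a chemokine of effector T cells, spanned 880 CPM at day 5 of untransduced ACT to 3648 CPM at day 12 of triple ACT. Without members holding Il2ra or Ikzf2 the highest Ccl5 level was that of PD1d/IL-2v ACT, at 6040 CPM in 20 cells, against 3385 CPM in all its members. Ccl5 was seen in 46.3% of the thinned members, 82.8% of CD8 cells and also 16.3% of Lyz2-high cells. Ctla4 was at 2120 CPM in PD1d/IL-2v ACT, 944 in non-treated tumors, 650 in untransduced ACT at day 5 and between 128 and 350 in the other libraries. In PD1d/IL-2v ACT 33.6% of the Ctla4 UMIs were in 1 cell. Without members holding Il2ra or Ikzf2 the level there was 395 CPM (interval 274 to 552). It was then below the 562 CPM of non-treated tumors (314 to 927) and the 482 CPM of untransduced ACT at day 5 (401 to 574), with intervals that overlap. In these non-treated tumors 80% of the Ctla4 UMIs were in 1 of 7 cells. Pdcd1 was highest at day 5 of untransduced ACT, with 1011 CPM in 56 of 95 cells, followed by 621 CPM in PD1d/IL-2v ACT, and lay between 85.6 and 273 CPM elsewhere. With members holding Il2ra or Ikzf2 left out, it was at 757 CPM (655 to 870) at day 5 of untransduced ACT. In PD1d/IL-2v ACT it was then at 743 CPM (573 to 949), with intervals that overlap. The interleukin-7 receptor gene Il7r was at 277 to 471 CPM in non-treated tumors, both libraries of untransduced ACT, PD1d/IL-2v ACT and day 26 of triple ACT, and at 54.6 to 130 CPM in the remaining 3 libraries, all of them with IL-33. Cytokines were detected in few members. Ifng was at 57.1 to 378 CPM, and the highest of these values came from 2 of 12 cells of non-treated tumors. Il4 was above 0 in 3 libraries, all with IL-33, in 2 of 43, 3 of 55 and 1 of 282 cells, and Il3 was at 0 in every library.

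**Figure D3:**
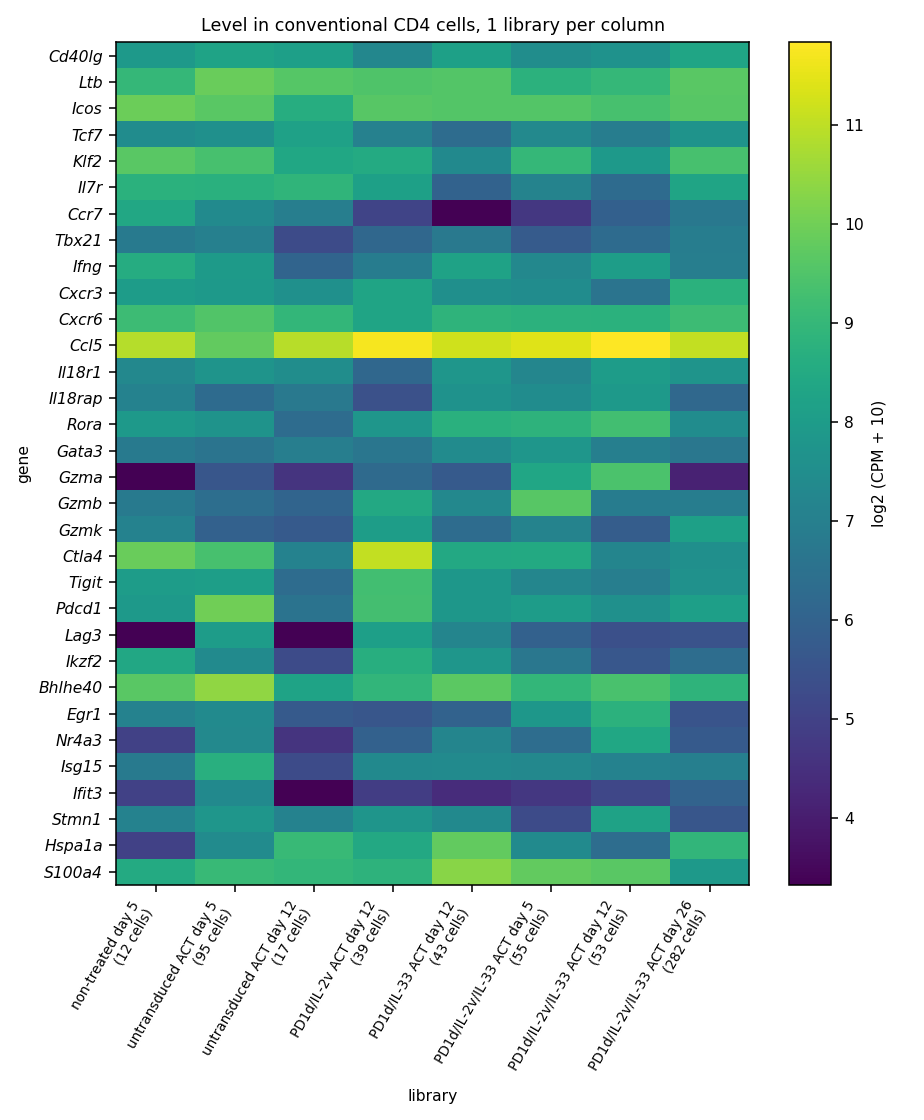
Level of 32 genes in the conventional CD4 cells of each library, as log2 (CPM + 10), with the number of members under each column. Ctla4 is highest in PD1d/IL-2v ACT (2120 CPM, but 395 CPM without members holding Il2ra or Ikzf2), Gzma at days 5 and 12 of triple ACT, and Il7r is low in 3 libraries with IL-33.

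Pairs of libraries with at least 20 members each were compared by the log2 ratio of CPM + 10. Genes needed 50 UMIs or more in the pair, and a gene was counted as different when the ratio was at least 1 in size. These counts carry no p. The run identifiers of a pair differ except for PD1d/IL-33 and PD1d/IL-2v ACT. Run and condition therefore cannot be told apart in the other pairs, and each library is 1 sample. Fewer cells of a state and less RNA per cell cannot be told apart in summed counts either. For some of the genes the number of members with a UMI, or the share of UMIs in the highest cell, is given as well. A version without the UMIs of the highest cell of each gene and library was added after seeing the data.

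At day 5, triple ACT was compared with untransduced ACT. Most measured helper cytokine and ligand genes and inhibitory receptors were lower in the members. Of 2031 genes, 87 were higher (4.28%) and 173 were lower (8.52%), and the median ratio was -0.14 (-0.01 after TMM scaling), so the ratios are read against this shift. Without cells with Il2ra or Ikzf2 the counts were 57 and 104. Only for a UMI of Il1rl1 or Il13, the gate kept out 90 CD4 T cells of triple ACT and 6 of untransduced ACT. The kept-out cells held Cd40lg at 300 and 318 CPM, against 171 and 299 CPM in the members. The ratios were not computed with these cells kept, and their part was not tested. Of 8 helper cytokine and ligand genes with enough UMIs 6 were lower and 0 higher (median -2.27). Tnfsf11 (RANKL) was at 8.15 CPM, in 2 of 55 cells, against 437 CPM in 41 of 95 cells (-4.62, interval -5.36 to -3.48). Rgs16, a brake on chemokine receptor signalling, was at 8.15 against 624 CPM (-5.13), and Ccr8, a chemokine receptor of T helper 2 and regulatory cells, was seen in 3 of 55 against 34 of 95 cells (-3.99, and -4.91 without cells with Il2ra or Ikzf2). Csf1, the macrophage growth factor, had 0 UMIs in triple ACT, which against a floor of 3 counts is a log2 ratio of at most -3.66. In CD8 cells of the same libraries, the ratios of Tnfsf11 (-1.25), Rgs16 (-1.42), Ccr8 (-1.83) and Csf1 (-1.61) had the same sign. In Foxp3-positive cells Rgs16 (-0.95) and Ccr8 (-1.61) had the same sign too, while Tnfsf11 (1.52) and Csf1 (0.34) had the opposite one. In these cells, 22 against 61 in number, Tnfsf11 was at 38.0 against 6.73 CPM and Csf1 at 25.3 against 17.9 CPM. There 3 counts equal 19.0 and 6.73 CPM, so the ratios of Tnfsf11 and Csf1 rest on few UMIs. Ccl4 was at -3.23 in the members, in 4 of 55 against 14 of 95 cells. Of its UMIs in untransduced ACT 58.3% were in 1 cell, and the ratio was -2.45 without the highest cell. In CD8 cells the ratio of Ccl4 was 1.53 and in Foxp3-positive cells 1.90. Of 3 inhibitory genes Pdcd1 (-1.98) and Lag3 (-2.04) were lower. Of 8 heat-shock and immediate-early genes 4 were lower and 0 higher. Markers of other cells moved as well. The list of NK genes was lower (2 of 2, summed level 139 against 460 CPM), as was the myeloid list (2 of 2, 147 against 403 CPM), while the list of type 2 innate lymphoid cells, most of it Rora, was higher (2 of 2, 860 against 313 CPM), and their part in these ratios was not tested.

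Of 5 cytotoxic genes 3 were higher at day 5 of triple ACT and 1, Ctsw, was lower (-1.67). Among the genes ranked highest, Grb2, a signalling adaptor, was in 36 of 55 against 18 of 95 cells (2.09, interval 1.43 to 2.75). Gzmb was at 778 against 73.5 CPM (3.24), in 24 against 12 cells, with 51.3% of its UMIs in 1 cell, and 2.15 without cells with Il2ra or Ikzf2. Gzma was at 318 against 38.0 CPM (2.77), in 11 of 55 against 9 of 95 cells, with 48.7% of its triple ACT UMIs in 1 cell. In CD8 cells of these libraries Gzmb differed by 1.80 and Gzma by 4.77, and in Foxp3-positive cells by -0.71 and 1.08. The Gzma level of the Foxp3-positive cells was 25.3 against 6.73 CPM, from few UMIs in both libraries. Gzma was seen in 2.68% of thinned Lyz2-high cells, which should lack it, and in 4.53% of thinned members. Plac8 was at 456 against 38.0 CPM (3.28, interval 2.63 to 3.94), and Hdc, the histamine-forming enzyme, at 224 against 0 CPM, a log2 ratio of at least 4.98 against the floor of 3 counts. In Hdc 70.9% of the UMIs were in 1 of 4 cells, and without it the ratio on the CPM + 10 scale was 3.06. Plac8 and Hdc were also high in CD4 T cells that the gate kept out only for a UMI of Il1rl1 or Il13, at 1115 and 362 CPM over all libraries, and the part of such cells in these ratios was not tested.

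In all, 192 cells with Il1rl1 or Il13 met every other condition, 90 of them at day 5 of triple ACT, 43 at day 12 and 24 at day 26, 22 with PD1d and IL-33, 7 with PD1d and IL-2v, 6 at day 5 of untransduced ACT and 0 in the remaining libraries. They held Cd40lg at 337 CPM, in 129 of 192 cells, against 266 CPM in the members. They held T helper 2 genes, which the gate selects for, with Il13 at 3379 CPM, Il5 at 2043 against 8.39 CPM in the members, Gata3 at 685 against 112 CPM and Areg at 4548 against 76.6 CPM. Day 5 of triple ACT held 3729 of the 4318 Il13 UMIs, 2303 of 2611 of Il5 and 5009 of 5813 of Areg. At its day 26 the levels were 194, 186 and 532 CPM. Over all libraries Cxcr6 was similar in the kept-out cells and the members (556 and 529 CPM), and Cxcr3 was at 37.6 against 296 CPM. With these cells kept, members would be 6.14% of the filtered cells. None of the ratios between libraries was computed with these cells kept.

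At day 12, PD1d/IL-33 ACT was compared with PD1d/IL-2v ACT, whose library carries the same run identifier. The members had lower Ctla4, Il7r and Ccl4 with IL-33, and 2 of 6 heat-shock and immediate-early genes were higher and 0 lower. Of 1144 genes, 62 were higher (5.42%) and 56 lower (4.9%), with a median of -0.11 (-0.08 after TMM scaling). Without cells with Il2ra or Ikzf2 the counts were 39 and 18. The summed myeloid level was 191 against 587 CPM and that of type 2 innate lymphoid cells 601 against 325 CPM. The part of either list was not tested. Il7r was at 54.6 against 277 CPM, in 5 of 43 against 14 of 39 cells (-2.15, interval -3.07 to -1.27). Ctla4 was at 339 against 2120 CPM (-2.61), but without cells with a UMI of Il2ra or Ikzf2 the ratio was -1.09. Ccl4 was at 10.9 against 754 CPM (-5.19), with 61.4% of the higher library's UMIs in 1 of 8 cells, and -1.69 without the cells with Il2ra or Ikzf2. Chpt1, an enzyme of phosphatidylcholine synthesis, was in 36 of 43 against 13 of 39 cells (2.51), Mknk2, a kinase of translation control, in 25 against 8 cells (2.30) and Nabp1, a single-stranded nucleic acid binding protein, in 28 against 10 cells (2.21, and 1.33 without cells with Il2ra or Ikzf2). Chpt1 and Mknk2 were higher in CD8 cells too (1.58 and 1.38). Of 11 trafficking genes 4 were higher and 1 lower, among them Itgal, the LFA-1 integrin chain (1.79), Cxcr4 (1.62), Gpr183 (1.60) and S100a4 (1.48). Il18r1, a chain of the interleukin-18 receptor, was higher with IL-33 (1.63, and -0.05 in CD8 cells). Ifng was at 290 against 110 CPM (1.32), and 0.60 without cells with Il2ra or Ikzf2.

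triple ACT was also set against each of its components at day 12. Against PD1d/IL-2v ACT, the measured inhibitory genes were lower in the members, with 68 of 1372 genes higher (4.96%) and 94 lower (6.85%; median -0.11, 0.04 after TMM scaling). Without cells with Il2ra or Ikzf2 the counts were 44 and 47. The summed myeloid level was 152 against 587 CPM. The list of type 2 innate lymphoid cells summed to 784 against 325 CPM, with 1 of 2 genes higher. The part of either list was not tested. Of 8 regulatory genes 6 were lower and 0 higher (median -1.57). Without cells with Il2ra or Ikzf2, which were 48.7% of the PD1d/IL-2v members, Ctla4 (-1.36) and Tnfrsf4 (-1.05) still passed the fold, while Capg (-0.86), Areg (-0.54) and Tnfrsf9 (-0.08) did not, and Ikzf2 was at 0 by the choice of cells. Of the inhibitory genes, 3 of 3 were lower (median -2.30). Ctla4 was at 137 against 2120 CPM (-3.85 with all members). Fgl2, a secreted immunosuppressive protein, was in 6 of 53 against 18 of 39 cells (-3.02), and -2.61 without cells with Il2ra or Ikzf2. In the CD8 cells the ratios were -0.40 for Ctla4 and 0.51 for Fgl2. Of 9 activation genes 3 were higher and 0 lower, and of 7 heat-shock and immediate-early genes 1 was higher and 2 were lower. Fosb was in 24 of 53 cells with a level of 206 CPM against 0, a log2 ratio of at least 3.85 against the floor of 3 counts, and Furin, a protease that matures precursor proteins, was in 31 of 53 against 4 of 39 cells (3.56, interval 2.48 to 4.53). Egr1 (3.21) was 1.77 without its highest cell, and Il2 (2.63) came from 1 of 53 cells and was -1.46 without it. The interleukin-18 receptor chains Il18rap (2.47) and Il18r1 (1.87) were higher in triple ACT, in a comparison that shares the PD1d/IL-2v library with the one before.

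Against PD1d/IL-33 ACT, fewer genes differed at day 12, with 20 of 1278 higher (1.56%) and 28 lower (2.19%; median -0.07, 0.05 after TMM scaling), and 13 were higher without cells with Il2ra or Ikzf2. None of 9 T helper 1 genes and none of 6 interferon-response genes passed the fold. The heat-shock genes Hspa1a (-3.44, interval -4.09 to -2.83), Hspa1b (-2.48) and Hsph1 (-1.89) were lower, and they were lower in CD8 cells of these libraries as well (-1.69, -1.74 and -1.16). In Foxp3-positive cells, 18 against 10 in number, the ratios were 1.45, -0.02 and 0.48 in the same order. Hspa1a was in 4 of 53 against 11 of 43 members, with 60% of its triple ACT UMIs in 1 cell. Without the highest cell its ratio was -4.08. Ikzf2 was at 39.7 against 213 CPM (-2.17), in 9 of 53 against 8 of 43 cells. Gzma was at 679 against 43.7 CPM (3.68), in 8 of 53 against 4 of 43 cells, with 44.7% of its triple ACT UMIs in 1 cell. CD8 cells held similar levels (0.10). Penk, the enkephalin precursor, was higher by 2.17, with 80.1% of its UMIs in 1 of 4 cells, and by 0.85 without that cell.

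Under triple ACT the members were followed from day 5 to day 12 and day 26. Between days 5 and 12, few genes differed, with 33 of 1455 higher (2.27%) and 41 lower (2.82%; median -0.01), and 23 were lower without cells with Il2ra or Ikzf2. Tnfsf11 was at 220 CPM at day 12 against 8.15 CPM at day 5 (3.67), in 14 of 53 against 2 of 55 cells, and Rgcc, a cell cycle regulator, was in 28 against 5 cells (3.10). The proliferation genes Stmn1 (2.96) and Cks2 (2.27) were higher at day 12, in 11 against 6 and 24 against 6 cells, while CD8 cells showed ratios of -0.12 and -0.26. Without cells with Il2ra or Ikzf2 the ratio of Cks2 was 4.32. Gzmb was at 108 against 778 CPM (-2.74), which was -1.55 without cells with Il2ra or Ikzf2 and -2.03 without its highest cell. At day 12, 3 of 8 interferon-response genes were lower, with Gbp2 among them (-2.05, and -1.27 without cells with Il2ra or Ikzf2). Mxd1, a repressor of MYC targets, was in 18 of 53 against 34 of 55 cells (-2.09). Cxcl10 (-2.49) rested on 7 of 55 cells at day 5 and was 0.63 without cells with Il2ra or Ikzf2.

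Between days 12 and 26, most of the measured activation and proliferation genes were lower in the members. Of 3804 genes, 240 were higher (6.31%) and 116 lower (3.05%), with a median of 0.11 (0.08 after TMM scaling). More genes reached 50 UMIs here because the day 26 library held 282 members. Of 9 activation genes 5 were lower and 0 higher (median -1.08), including Nr4a3 (-2.68, interval -3.13 to -2.23), a target of T cell receptor signalling, which was in 29 of 282 against 27 of 53 cells. Of 6 proliferation genes 5 were lower (median -1.60). Fosb (-3.48), Furin (-3.01) and Egr1 (-3.28, and -1.93 without its highest cell) were lower at day 26. Gzma was at 7.70 CPM against 679 (-5.28), in 6 of 282 against 8 of 53 cells. Of its day 12 UMIs 44.7% were in 1 cell, and the ratio was -4.87 without the highest cell. In CD8 cells the signs were the same for Nr4a3 (-2.13), Fosb (-2.72), Furin (-1.32), Egr1 (-0.96) and Gzma (-1.39). Of 11 T helper 1 genes 1 was higher and 2 were lower (median -0.32). The higher one was the receptor Cxcr3, at 424 CPM in 197 of 282 cells against 86.7 CPM in 15 of 53 cells (2.17), and the lower ones were Ifng (-1.10) and Il18rap (-1.72). Of 8 memory and recirculation genes 2 were higher, Il7r (2.00) and Klf2 (1.44), and 1 was lower, Satb1 (-1.20). Higher too was Pydc3, an interferon-inducible gene, in 93 of 282 against 3 of 53 cells (2.53). Hspa1a was in 95 of 282 against 4 of 53 cells (2.57). The MHC class II genes H2-Aa and H2-Eb1 and the invariant chain Cd74 also ranked at the top, but 81.1%, 92.2% and 81.8% of their UMIs at day 26 were in 1 cell, and without the highest cell their ratios were 2.13, 0.92 and 1.75. The summed level of myeloid genes was higher at day 26 as well (1328 against 152 CPM). That of type 2 innate lymphoid cells was lower (294 against 784 CPM, with 1 of 2 genes lower). The part of either list in these ratios was not tested.

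**Figure D4:**
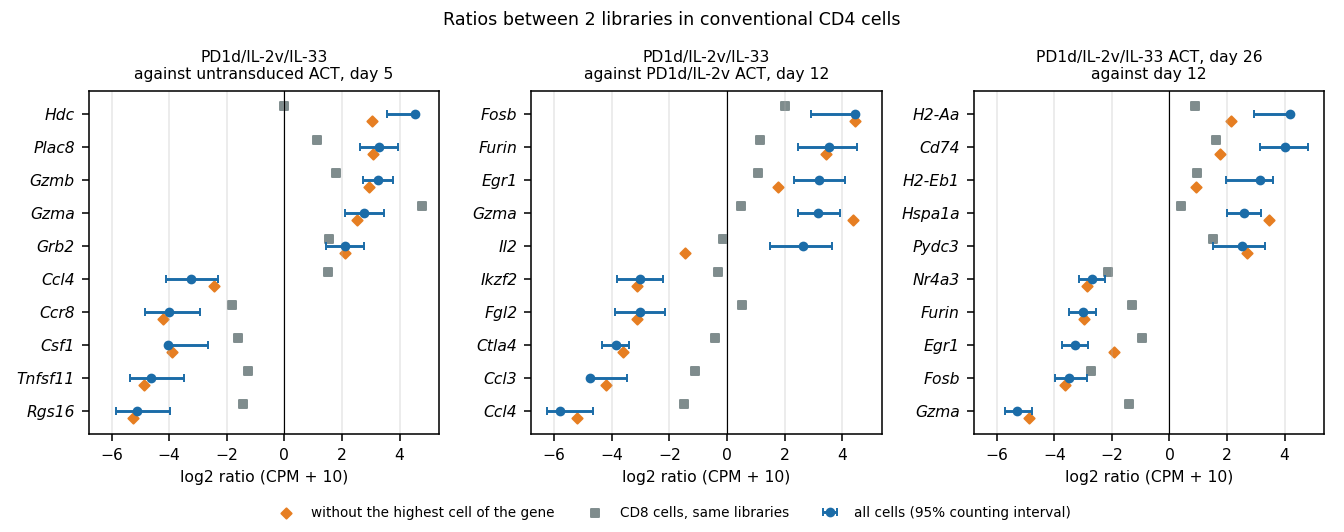
Log2 ratio of CPM + 10 between 2 libraries in conventional CD4 cells, for the 5 highest and 5 lowest genes of 3 pairs, with 95% counting intervals (blue), without the highest cell of each gene (orange) and in CD8 cells of the same libraries (grey). Il2 changes sign without its highest cell, H2-Eb1 moves from 3.14 to 0.92, and Tnfsf11 is at -4.62 and -4.87.

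The libraries of non-treated tumors and of untransduced ACT at day 12 held 12 and 17 members and were not ranked. In non-treated tumors Rgs16 was at 1448 CPM and Nr4a1, an early gene of T cell receptor signalling, at 1637 CPM in 9 of 12 cells. All 30 UMIs of Il17a, the T helper 17 cytokine, were in 1 of these 12 cells, while the other libraries held Il17a in 1 cell of untransduced ACT at day 5. In untransduced ACT at day 12 Tcf7 was at 285 CPM in 11 of 17 cells, and Lag3 was at 0.

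Pairs of genes were then read within single cells, with each member thinned to 2000 UMIs so that depth is equal. The cells of a library are not replicates, and the shares are given without a test. Cxcr6, a receptor of tissue-resident effector cells, was seen in 19.0% of the 42 members with Ccr7, the lymph node homing receptor, and in 52.7% of the 554 without it. In members with Klf2 the share with Cxcr6 was 36.6%, against 58.6% in those without. Members with Pdcd1 held Bhlhe40, an activation factor, in 60.2% of cells and Klf2 in 23.6%, against 38.5% and 44.2% of members without Pdcd1. Within the day 26 library alone the order was the same, but the intervals overlapped for Cxcr6 by Ccr7, Klf2 by Pdcd1 and Bhlhe40 by Pdcd1, with Cxcr6 in 29.4% of cells with Ccr7 against 55.8%, and Klf2 in 30.3% of cells with Pdcd1 against 43.0%. Ikzf2 was in 28.2% of members with Ctla4 and 6.34% of those without, and in 8.33% of members with Cd40lg against 15.0%, with intervals that overlap (5.01% to 12.9% and 11.6% to 19.0%). Cxcr6 was in 52.7% of cells with Cxcr3 and 48.7% of those without, with intervals that overlap. As background, Cxcr6 was seen in 0.0864% of thinned Lyz2-high cells, Ccr7 in 0.345%, and Pdcd1, Ctla4 and Ikzf2 in 0.604% each.

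**Figure D5:**
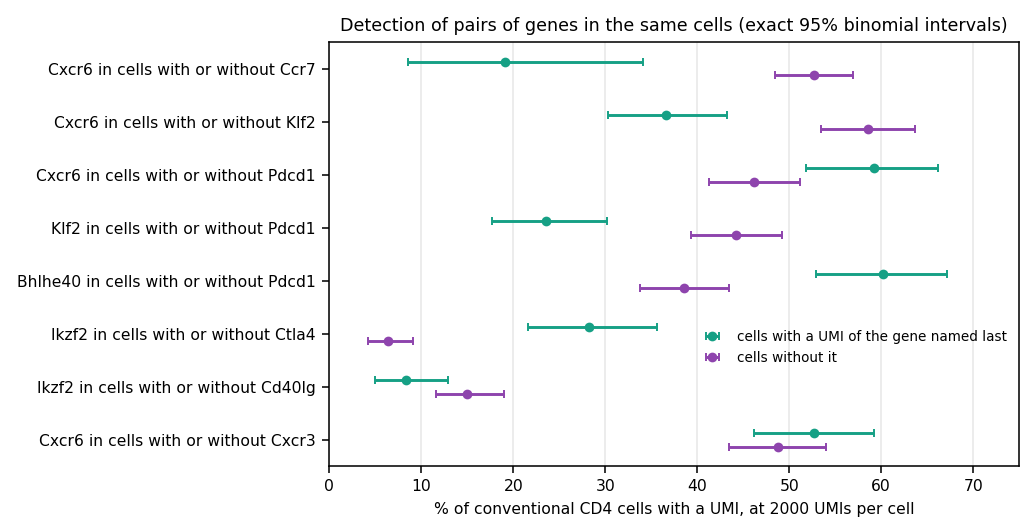
Share of conventional CD4 cells with a UMI of a gene (in %), split by a UMI of a second gene (green with, purple without), at 2000 UMIs per cell and with exact 95% binomial intervals. The largest gap among these pairs is that of Cxcr6 by Ccr7, 19.0% against 52.7%, and the shares of Cxcr6 by Cxcr3 overlap.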

How the data were processed

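The authors prepared 5' libraries on the 10x Chromium platform and demultiplexed them with bcl2fastq. UMI counts per gene and cell were made with Cell Ranger on GRCm38. The labels give its version as 2.2.0, and the study's methods name a later one. The deposited counts are 1 aggregated matrix of 8 libraries, 27998 genes and 98669511 UMIs, as whole numbers without scaling. Whether aggregation subsampled reads to equal depth is not given in the sources used here. Barcodes per library are round numbers (400 to 3700), which bears on shares and depths. The study's methods name default settings for the Cell Ranger count step and do not say whether a number of cells was set. Cells were kept with 500 to 6000 genes, 2000 to 40000 UMIs, 5% to 60% ribosomal protein and under 10% mitochondrial UMIs, the study's filter. Members were gated by UMIs, without clustering, and no doublet caller was run; an alternative left out the 5% of cells with the most UMIs. UMIs summed per library and type were tested with edgeR 4.0.16 (TMM, quasi-likelihood, library block, Benjamini-Hochberg over all genes, 12 gate genes not read). SE is the log2 fold change over the square root of F, an approximation. With 1 library per condition, CPM ratios carry exact Poisson intervals and no test. Named genes are the 10 highest and 10 lowest called genes that moved 1 way in every library, and for ratios the 5 highest and 5 lowest; further genes come from the lists. Members and lists were chosen with earlier results of these data known. Some genes are not reported here.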

Additional observations from a re-analysis of the deposited data

How the results depend on the processing

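Members were 3.55% of filtered cells without those holding Il2ra or Ikzf2, 6.14% without the conditions on Il1rl1 and Il13 and 3.77% with the gate on counts thinned to 2000 UMIs. That thinned gate gave Foxp3-positive shares of 23.2% in all, 22.5% and 15.8% at days 5 and 12 of untransduced ACT, 55.1% in PD1d/IL-2v ACT and 15.6% at day 26 of triple ACT. Against Foxp3-positive cells, genes higher and lower numbered 129 and 140 with the thinned gate, 176 and 162 with thinned counts, and 582 and 547 without the filter on low counts. Leaving out 1 library gave 233 to 384 higher and 213 to 311 lower, with 233 without triple ACT at day 26. Against CD8 cells they numbered 301 and 313 with thinned counts and 289 and 319 without the library block, and 1225 were lower without the filter. Leaving out 1 library gave 432 to 650 and 479 to 759. DESeq2 called 267 and 256 genes against Foxp3-positive cells and 521 and 575 against CD8 cells. Among the named genes, Areg lost its call under the 2 gates given above, and Gzma against CD8 cells without the library block (-2.47). No named gene reversed where it had a value, but not every gene was tested under each setting. Of 20 named genes per comparison, 7 against Foxp3-positive cells and 9 against CD8 cells were tested with thinned counts, and 14 against Foxp3-positive cells without cells holding Il2ra or Ikzf2. A minimum of 10 UMIs raised the higher and lower counts of the 6 ranked pairs, in the order given above, to 376 and 686, 431 and 423, 346 and 475, 221 and 302, 218 and 317, and 582 and 286. Without cells holding Il2ra or Ikzf2 they were 57 and 104, 39 and 18, and 44 and 47 for the first 3 pairs, 13 higher for triple against PD1d/IL-33 ACT and 23 lower for day 12 against day 5. With a pseudocount of 1 CPM, 364 genes were higher at day 26. Ratios of named genes reversed for Il2 (-2.17 without cells holding Il2ra or Ikzf2 and -1.46 without its highest cell) and Cxcl10 (0.63 without those cells). Cell types were compared within libraries through the library block. No paired analysis was possible between conditions because each condition and day is 1 library.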
